A study of Rattus norvegicus with 6 samples.

Results

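The genes described here are 10 genes of the ATF4 and CHOP stress response, chosen by their symbols: Atf4, Atf5, Ddit3, Trib3, Chac1, Asns, Ppp1r15a, Cebpb, Cebpg and Vldlr. Of these 10, 8 were found by symbol among the 18930 rows of the deposited count table, and 7 had enough reads to be tested. Ppp1r15a and Cebpg were not analysed here. RNA came from NRK-52E cells, a wild-type epithelial cell line of the rat kidney, either given vehicle (Control, n = 3) or exposed for 24 h to streptozotocin (STZ) at 10 mM (n = 3). STZ is a nitrosourea joined to a glucose-like sugar and alkylates DNA. The sources used here do not say whether the 3 samples of a group were separate cultures, so the errors and p-values below measure the spread between these samples, which may be technical.

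When a cell senses unfolded protein in the endoplasmic reticulum, a lack of amino acids, double-stranded RNA or mitochondrial stress, kinases phosphorylate the initiation factor eIF2 and slow protein synthesis. Under these conditions the mRNA of Atf4 is translated more, and the ATF4 protein activates genes of amino acid supply and, through Ddit3 (which encodes CHOP), genes linked to cell death. ATF4 is therefore controlled largely at translation, which counts of RNA do not measure.

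Total counts lay between 10430924 and 15191349 per sample. Counts were scaled by edgeR's TMM method to CPM (the count of a gene relative to the scaled total of its sample), and STZ was tested against Control with the quasi-likelihood model of edgeR, with p-values adjusted over 11870 genes by the method of Benjamini and Hochberg. Errors of log2 fold changes are given as the SE. A gene was said to have changed at an adjusted p-value under 0.05, and was called differentially expressed when its absolute log2 fold change was also over 1. Cdkn1a, the p53 target that encodes the cell cycle inhibitor p21, served as the check of the treatment and had 1297 ± 23.0 CPM in STZ and 231 ± 4.20 CPM in Control (SD, n = 3). Among epithelial markers, Krt8 had 11691 reads or more and Tjp1 6373 or more in every sample, but Cdh1 had 16 to 35. Of 7 proximal tubule markers with a row, 1 (Aqp1) had at least 10 reads in every sample, with 66 to 167. The summed level of the 4 epithelial markers with a row, of 8 listed, was 1704 to 1791 CPM in Control and 2283 to 2288 CPM in STZ. Nearly all of it came from Krt8 and Tjp1, and Krt18 had 0 to 3 reads. For 6 fibroblast and smooth muscle markers, of which 4 had at least 10 reads in every sample, it was 1991 to 2213 CPM in Control and 1916 to 1949 CPM in STZ. Nearly all of that was Vim, with 20083 to 28027 reads. The 7 proximal tubule markers summed to 9.89 to 16.7 CPM in Control and 5.73 to 6.83 CPM in STZ, most of it Aqp1. These sums thus follow 1 or 2 genes each and not whole marker sets. No distal tubule, endothelial or leukocyte marker reached 10 reads in every sample, and their summed levels were at most 0.29, 1.13 and 2.40 CPM. The part of these shifts in the results below was not tested.

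The members split into a set that rose and a pair whose groups overlapped. Ddit3 and Chac1 rose most, Cebpb, Vldlr and Trib3 rose less, and the STZ samples of Atf4 and Asns overlapped the controls. Of the 7 members tested, 5 were higher in STZ at an adjusted p-value under 0.05, against 25.9% of all genes tested. None was lower, against 25.1% of all genes. None passed the fold-change threshold as well, a threshold that 2.26% of all genes passed upwards and 1.11% downwards, while 5 had an unadjusted p under 0.05 in edgeR's test. DESeq2's Wald test and limma-voom likewise called 0 members at both thresholds. In 5 of the 7 members every STZ sample lay above every Control sample, a pattern seen upwards in 28.6% and downwards in 27.7% of all genes tested. The count was 4 when scaled by library size only or by the upper quartile, where the groups of Vldlr overlapped. The median log2 fold change of the 7 members was 0.46, beside -0.01 for all genes tested. In RNA from bulk cells, a change in the share of cells that express a gene and a change in RNA per cell cannot be told apart.

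**Figure D1:**
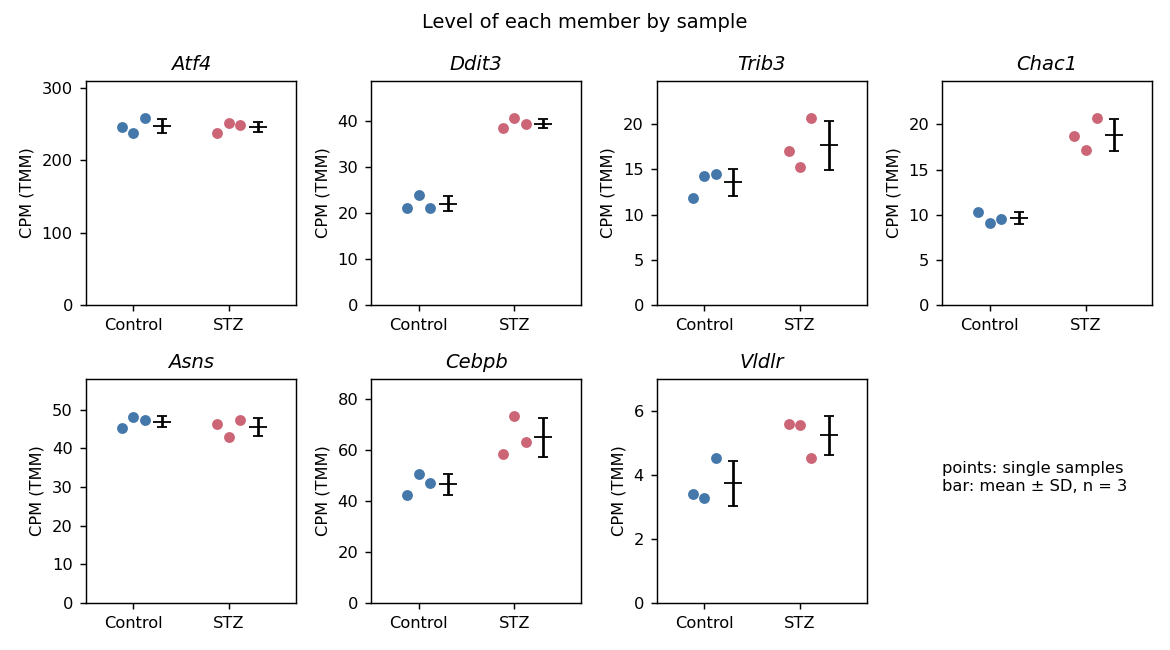
Level of each member tested, in CPM after TMM scaling (y axes start at 0), in single Control and STZ samples, with the mean and SD of 3 samples beside them. STZ samples lie above all Control samples for Ddit3, Trib3, Chac1, Cebpb and Vldlr (Vldlr by a margin that depends on the scaling) and overlap them for Atf4 and Asns.

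Promoter letters are shown for the 3 members with a match whose level rose, so that the values that follow can be read beside them. The promoter windows of RefSeq (build GRCr8), from 250 bases before to 50 bases after each start, matched all 10 members. Each was searched on both strands for TGATGNAA, the core of the element bound by ATF4 and C/EBP dimers, for TGACGTNA, the element bound by CREB and ATF factors, and for TGANTCA, the site of AP-1 factors. The core of the ATF4 element was in the windows of 2 members, Chac1 and Trib3, and in 3.98% of 33469 windows of all genes. The AP-1 letters were in the windows of 3 members, Ddit3, Atf5 and Ppp1r15a, and in 7.33% of all windows. The letters of the CREB element were in that of Ppp1r15a only among the members and in 3.25% of all windows. In the 3 stretches of 100 bases below, written 5′ to 3′ on the strand of the gene, capitals mark the match, and the matches of Chac1 and Trib3 are the reverse complement of the core. No match in these 3 stretches overlaps a match to another of the letters searched. The stretches are chr3:126795931-126796030 (plus strand) for Chac1, chr3:161275534-161275633 (minus strand) for Trib3 and chr7:65001445-65001544 (plus strand) for Ddit3.
Chac1: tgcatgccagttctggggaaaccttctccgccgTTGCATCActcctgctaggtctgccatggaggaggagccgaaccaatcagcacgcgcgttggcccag
Trib3: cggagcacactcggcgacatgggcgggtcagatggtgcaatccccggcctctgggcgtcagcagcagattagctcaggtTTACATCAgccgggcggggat
Ddit3: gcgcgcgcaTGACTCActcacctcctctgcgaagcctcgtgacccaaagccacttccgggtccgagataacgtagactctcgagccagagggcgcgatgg
The match began 167 bases before the start in Chac1, 21 bases before it in Trib3 and 241 bases before it in Ddit3. A match is a run of letters and not a measured binding site, and windows without one say nothing of sites elsewhere.

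The response begins with Atf4, which encodes the transcription factor itself. Atf4 had 2609, 2617 and 3308 reads in the Control samples, and 3276, 2889 and 3726 reads in the STZ samples, each in the order of replicates 1, 2 and 3, as below. After scaling these were 246, 238 and 258 CPM in Control and 238, 251 and 248 CPM in STZ, so the groups overlapped. The log2 fold change was -0.01, with a 95% interval from -0.09 to 0.07 (edgeR adjusted p = 0.866). With an SE of 0.04, this was the most tightly measured of the members. Atf5, a related factor that is also controlled by translation, had 7, 7 and 3 reads in Control and 7, 2 and 6 in STZ. It was too low to be tested, and a change in it was not detectable at this depth.

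Ddit3, the gene of CHOP, a C/EBP-like factor that ATF4 induces, had 223, 264 and 272 reads in Control and 529, 467 and 590 in STZ. These were 21.0, 24.0 and 21.2 CPM in Control and 38.4, 40.5 and 39.3 CPM in STZ. The lowest STZ sample lay well above the highest Control sample. The log2 fold change was 0.84 (SE 0.07, 95% interval 0.69 to 0.99, edgeR adjusted p = 6.2e-13), a 1.79-fold rise. Of all genes tested, 3.28% had a larger rise. In the GRCr8 annotation the span of Ddit3 overlaps that of Mars1, a tRNA synthetase gene with a log2 fold change of -0.10, and 1 unnamed gene. Whether reads were counted by strand is not given in the sources used here, so reads of such genes may not be fully separated.

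Chac1 encodes an enzyme that degrades glutathione and is a target of ATF4 and CHOP. It had 110, 100 and 122 reads in Control and 257, 198 and 310 in STZ, or 10.4, 9.08 and 9.50 CPM in Control and 18.7, 17.2 and 20.7 CPM in STZ. All STZ samples lay above all Control samples. Its log2 fold change, 0.97 (SE 0.11, 95% interval 0.76 to 1.19, edgeR adjusted p = 2.6e-10), was the largest of the members and lay just under the fold-change threshold. Without Control replicate 1 it was 1.02 and without STZ replicate 2 it was 1.03, past that threshold, whereas it was 0.90 without STZ replicate 3. Of all genes tested, 2.39% had a larger rise.

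Trib3 encodes a pseudokinase that binds the kinase AKT and ATF4 and is induced by ATF4 and CHOP. Its level was 11.9, 14.3 and 14.5 CPM in Control (126, 157 and 186 reads) and 17.0, 15.3 and 20.6 CPM in STZ (234, 176 and 309 reads). STZ replicate 2 lay close above the highest Control sample and STZ replicate 3 stood highest. The log2 fold change was 0.39 (SE 0.11, edgeR adjusted p = 0.0024). It rested in part on STZ replicate 3, without which it was 0.25 (edgeR adjusted p = 0.0728).

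Cebpb encodes C/EBPβ, a bZIP factor that pairs with ATF4 and CHOP and is also induced by cytokines and growth signals. It had 448, 555 and 601 reads in Control (42.2, 50.4 and 46.8 CPM) and 803, 843 and 947 in STZ (58.3, 73.2 and 63.1 CPM). The groups did not overlap, and STZ replicate 2 stood highest. The log2 fold change was 0.47 (SE 0.07, 95% interval 0.34 to 0.61, edgeR adjusted p = 1.2e-07), a 1.39-fold rise.

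Vldlr encodes the very low density lipoprotein receptor, which binds lipoproteins and reelin and is raised by ATF4 under endoplasmic reticulum stress. It had the fewest reads of the members tested, 36, 36 and 58 in Control (3.39, 3.27 and 4.52 CPM) and 77, 64 and 68 in STZ (5.59, 5.55 and 4.53 CPM). Control replicate 3 and STZ replicate 3 had nearly the same level, and scaled by library size only their order turned (4.55 and 4.48 CPM). The log2 fold change was 0.46 with a wide 95% interval of 0.09 to 0.83 (edgeR adjusted p = 0.0319). The adjusted p-value was over 0.05 with DESeq2's Wald test (adjusted p = 0.0972) and in the edgeR test without Control replicate 1 (0.0997), Control replicate 2 (0.133), STZ replicate 1 (0.108) or STZ replicate 2 (0.0901), while the log2 fold change in these 5 fits was 0.38 to 0.47. In the annotation its span overlaps 1 unnamed long non-coding RNA.

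Asns encodes asparagine synthetase and is one of the standard readouts of ATF4 when amino acids are short. It had 481, 529 and 608 reads in Control (45.3, 48.1 and 47.4 CPM) and 639, 494 and 710 in STZ (46.4, 42.9 and 47.3 CPM), and the groups overlapped. The log2 fold change was -0.04, with a 95% interval from -0.16 to 0.08 (edgeR adjusted p = 0.612). The upper end of this interval lies under the lower ends for Ddit3, Chac1, Cebpb and Trib3. It also lies under that for Vldlr, but only just (0.083 and 0.094). These differences in size were not themselves tested.

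**Figure D2:**
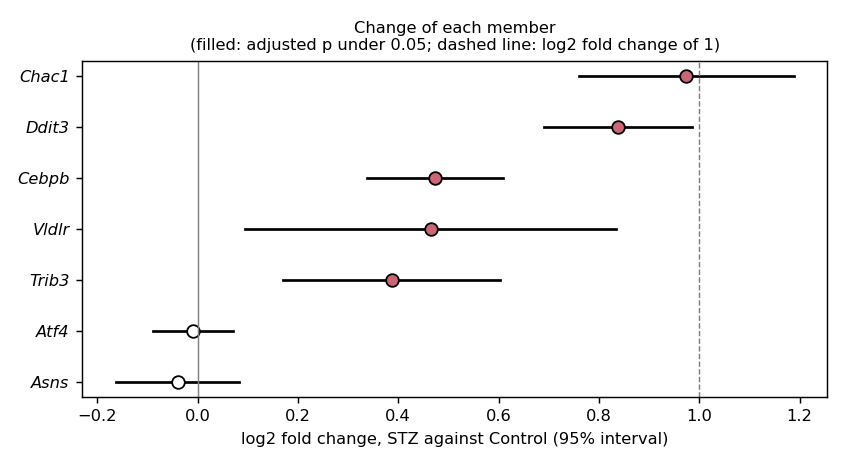
Log2 fold change of each member, STZ against Control, with its 95% interval; filled points passed an adjusted p-value under 0.05 and the dashed line marks the fold-change threshold of 1. Chac1 (0.97) and Ddit3 (0.84) lie near that line, and the intervals of Atf4 and Asns span 0.

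The other members were also set against Atf4 within each sample, a ratio that no scaling of libraries affects. Since Atf4 had a log2 fold change of -0.01, these ratios largely repeat the fold changes above and are not separate evidence. Ddit3 had 8.55, 10.1 and 8.22 reads per 100 Atf4 reads in Control, and 16.1, 16.2 and 15.8 in STZ. Within STZ these ratios were closer to each other than within Control. Chac1 had 3.91 ± 0.275 reads per 100 Atf4 reads in Control and 7.67 ± 0.748 in STZ (SD, n = 3), and Cebpb had 18.8 ± 2.10 and 26.4 ± 2.48. For Trib3 the ratio was 5.48 ± 0.597 in Control and 7.18 ± 1.10 in STZ (SD, n = 3). For Vldlr it was 1.38, 1.38 and 1.75 in Control and 2.35, 2.22 and 1.83 in STZ. In these 5 genes every STZ ratio lay above every Control ratio. How many of all genes tested do so in this ratio was not computed. In CPM, 28.6% of them had every STZ sample above every Control sample. For the 5 genes the exact two-sided permutation test gave p = 0.1, the smallest p that 3 samples against 3 allow, so it could not pass 0.05. For Asns the ratio was 19.0 ± 1.04 in Control and 18.6 ± 1.28 in STZ, with overlapping groups (exact two-sided permutation p = 0.6). These ratios describe reads and do not compare the abundance of one transcript with another, since gene lengths enter them.

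**Figure D3:**
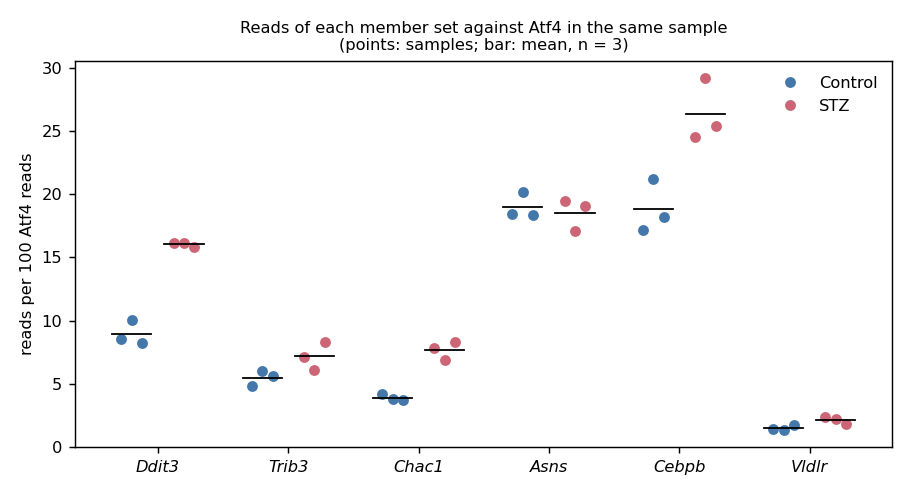
Reads of 6 members per 100 Atf4 reads in the same sample (y axis from 0), with single Control and STZ samples as points and the mean of 3 as a bar. Ddit3 rises from 8.22 to 10.1 in Control to 15.8 to 16.2 in STZ, and Asns overlaps between the groups.

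Among tested genes with a symbol, Acadvl, Plk3 and Tap1 followed Ddit3 most closely over the 6 samples. Their Pearson correlations of log2 CPM with Ddit3 were 0.9995, 0.9993 and 0.9992. Any gene that differs between the groups by more than its spread has a high r here, so this is a description only.

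Upstream of Atf4 stand the eIF2 kinases, of which 3 were higher and 1 lower. Eif2ak2, the kinase PKR that senses double-stranded RNA and is also induced by interferon, rose with a log2 fold change of 0.88 (SE 0.05, edgeR adjusted p = 7.2e-19), from 66.9 ± 3.16 to 123 ± 5.07 CPM (SD, n = 3). Eif2ak3 (PERK, the sensor of unfolded protein) and Eif2ak1 (HRI, which responds to haem shortage and mitochondrial stress) rose by less, with log2 fold changes of 0.21 and 0.20. Eif2ak4 (GCN2, the sensor of uncharged tRNA) fell by 0.31 on the log2 scale. Among all 15 genes of eIF2 kinases and eIF2 control, 6 were higher and 5 lower at an adjusted p-value under 0.05, and the median log2 fold change was 0.05. Of all genes tested, 25.9% were higher and 25.1% lower, so counts in both directions are common in these data. DESeq2's Wald test found 5 higher and 2 lower, edgeR's test without Control replicate 3 also 5 and 2, and that test without STZ replicate 3 found 4 and 2. Impact, an inhibitor of GCN2 activation, rose with a log2 fold change of 0.28, and Dele1, which relays mitochondrial stress to HRI, fell by 0.24. Ppp1r15b, the constitutive partner of the phosphatase that reverses eIF2 phosphorylation and a relative of Ppp1r15a, had a log2 fold change of -0.04 (edgeR adjusted p = 0.506).

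Downstream, the enzymes of serine, glycine, proline and folate metabolism that ATF4 activates in other settings were lower in STZ. All 7 tested of 8 listed fell at an adjusted p-value under 0.05, with a median log2 fold change of -0.59 and a range from -0.95 to -0.26, where 25.1% of all genes tested fell. Psat1, an aminotransferase of serine synthesis, had 161 ± 9.48 CPM in Control and 83.4 ± 3.57 CPM in STZ (SD, n = 3), a log2 fold change of -0.94 (SE 0.05, edgeR adjusted p = 1.8e-20). Phgdh, the first enzyme of that pathway, Shmt2, which makes glycine in mitochondria, and Aldh18a1, of proline synthesis, had log2 fold changes of -0.66, -0.58 and -0.59. Every STZ sample lay below every Control sample for these 4 genes, a pattern seen in 27.7% of all genes tested. The 4 were named for having the smallest p-values of the list, so this adds little to their p-values.

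Transporters and tRNA synthetases had members in both directions, as did all genes tested (25.9% higher and 25.1% lower). Of 8 amino acid transporters tested, 2 were higher, 4 lower and 2 not past the threshold, with a median log2 fold change of -0.28. Slc1a4, a carrier of small neutral amino acids, rose with a log2 fold change of 0.55, and Slc3a2, the heavy chain shared by several exchangers, with one of 0.22. Slc7a1 and Slc38a2, which import cationic and neutral amino acids, had log2 fold changes of -0.36 and -0.25. Slc7a11, the cystine importer often used as an ATF4 readout, had 9 to 17 reads in Control and 10 to 15 in STZ (log2 fold change -0.30, SE 0.36), too few to settle a direction. Of 12 cytosolic aminoacyl-tRNA synthetases, 3 were higher and 4 lower, none by more than 0.19 on the log2 scale, and the median was -0.08. Scaled by library size only, 2 were higher and 7 lower, and scaled by the upper quartile 2 and 4. Sars1 and Gars had log2 fold changes of 0.19 and 0.15, while those of Iars1 and Eprs were -0.18 and -0.13.

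Other targets of ATF4 and CHOP were mostly higher. Of 8 tested of 12 listed, 6 were higher and 1 lower, beside 25.9% and 25.1% of all genes tested, and the median log2 fold change was 0.53. Atf3, a stress-induced bZIP factor, had 28, 33 and 35 reads in Control and 125, 117 and 124 in STZ, a log2 fold change of 1.71 (SE 0.17, edgeR adjusted p = 1.6e-11). Sesn2 and Ddit4, both inhibitors of mTORC1, had log2 fold changes of 1.30 and 0.76, and Ero1a, an oxidase of the endoplasmic reticulum, one of 0.30. Atf3, Sesn2 and Ddit4 are also known targets of p53, and which factor acted on them was not tested. In this list Atf3 and Sesn2 passed both thresholds.

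The arm of the unfolded protein response that runs through ATF6 and XBP1 shifted slightly. Of 19 genes tested, 11 were higher and 1 lower, beside 25.9% and 25.1% of all genes tested, with a median log2 fold change of 0.12 and none over 0.34. Without Control replicate 1, 7 were higher and 1 lower. Scaled by library size only, 10 were higher and 3 lower, and by the upper quartile 11 and 3. Hspa5, the chaperone BiP, had 2205 ± 107 CPM in Control and 2401 ± 60.8 CPM in STZ (SD, n = 3), a log2 fold change of 0.12 (edgeR adjusted p = 0.0042). Dnajc3, a co-chaperone that inhibits PERK, had one of 0.34, Pdia3, a protein disulphide isomerase, 0.27, Dnajb11, a co-chaperone of BiP, 0.24, and Calr, the lectin chaperone calreticulin, 0.21.

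**Figure D4:**
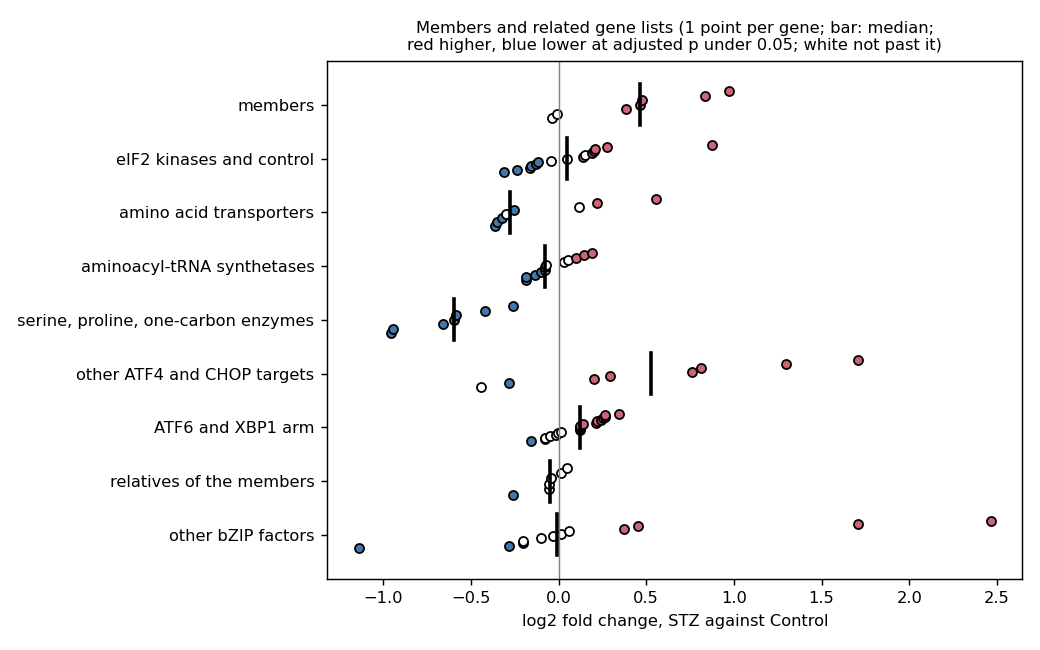
Log2 fold change, STZ against Control, of the 7 members and of the genes tested in 8 related lists, 1 point per gene with the median as a bar; red and blue mark genes higher and lower at an adjusted p-value under 0.05. The enzymes of serine, proline and folate metabolism all lie below 0, and the ATF6 and XBP1 arm lies between -0.16 and 0.34.

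Of the 6 relatives of the members counted here, 0 were higher and 1 lower at an adjusted p-value under 0.05, beside 25.9% and 25.1% of all genes tested, and 1 also had an unadjusted p under 0.05 in edgeR's test. DESeq2's Wald test and limma-voom gave the same counts, and scaling by library size only gave 0 and 2. Trib1, Chac2 and Asnsd1, relatives of Trib3, Chac1 and Asns, had log2 fold changes of 0.05, 0.02 and -0.05 (SEs 0.09, 0.11 and 0.05). The gene that was lower, Lrp8, encodes the other reelin receptor beside Vldlr and had a log2 fold change of -0.26 (SE 0.07, edgeR adjusted p = 0.0018). Lrp1, a large receptor related to Vldlr, had one of -0.05.

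Among 12 other bZIP factors tested, which can pair with ATF4 or C/EBP proteins or share sites with them, 4 were higher and 3 lower, with a median log2 fold change of -0.01. These counts are near the shares of all genes tested (25.9% higher and 25.1% lower). With library size only or the upper quartile, 4 were higher and 5 lower. Fosl1, the AP-1 factor Fra-1, had 23, 41 and 52 reads in Control and 230, 229 and 290 in STZ (log2 fold change 2.46, SE 0.15). Jun rose with a log2 fold change of 0.45, while Fos, induced early by growth signals, had one of -1.14. Atf3 is counted in this list as well as among the other targets.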

How the data were processed

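The authors mapped 100-base single-end reads (TruSeq stranded mRNA, HiSeq 2500) to the rat genome (Rnor6) with STAR 2.7.10a and deposited raw counts of uniquely mapped reads per gene from featureCounts, 1 column per sample. The strand setting is not given in the sources used here. Here, edgeR 4.0.16 in R 4.3.3 was used for filterByExpr, TMM scaling and the quasi-likelihood model, with p-values of 11870 genes adjusted by the method of Benjamini and Hochberg. The SE of a log2 fold change was derived as its size over the root of its F statistic. The thresholds follow the study. The fit was tested on simulated counts. Alternatives were 2 filters, 3 scalings, DESeq2 1.42.0, limma-voom (limma 3.58.1), a replicate block, thinning to the smallest total, and each sample left out. The members and lists were chosen with earlier results of these data known, so no test of a list is given. From each list, at most 4 genes with the smallest p past the threshold were named, besides relatives of the members, eIF2 kinases, Hspa5, Atf3 and Slc7a11. Replicates differed by more than sampling noise (chi-square per degree of freedom of at least 1.90). Gene models of Rnor6 were not used here, so levels were not compared between genes. One gene of the list of relatives is not reported here and was left out of its counts.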

Additional observations from a re-analysis of the deposited data

How the results depend on the processing

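The number of members past the adjusted p-value, 5, was 4 with DESeq2's Wald test, 5 under the other alternatives with all samples, and 4 to 5 with one sample left out. No member was differentially expressed under 9 alternatives with all samples, and 0 to 1 was with one sample left out; that 1 was Chac1. The log2 fold changes of Ddit3 (0.80 to 0.90), Chac1 (0.90 to 1.03) and Cebpb (0.39 to 0.55) stayed positive and past the adjusted p-value under all 15 alternatives. That of Atf4, not past the threshold in any of them, ran from -0.038 to 0.022 with one sample left out and changed sign without Control replicate 3 (0.022) and without STZ replicate 1 (0.016). The count over all genes, 400, was 585 with no filter, where more genes are tested, and 249 when each sample needed 10 counts, where fewer are. Of the eIF2 genes, 11 passed, 7 with DESeq2's Wald test (the cause was not tested), and 6 to 11 with one sample left out. Among relatives 1 passed, and 2 when scaled by library size only. Members whose groups did not overlap, 5, were 4 with library size only or the upper quartile (chosen after seeing the data). Control and STZ share replicate numbers, and the sources used here do not say whether same-numbered samples were handled together. Between same-numbered samples, deviations from the group means had correlations of 0.0319, -0.0389 and 0.102. With 3 samples per group, such correlations cannot decide whether more than a number is shared. With the replicate block, 5 members passed the adjusted p-value, 0 passed both thresholds, 398 genes in all did, and the block changed no call of a member. Vldlr, with 36 to 77 reads, and Atf5, with 2 to 7, are limited by depth.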
